A study of Mus musculus with 20 samples.

Results

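Abdominal skin of mice that received both a high fat diet and imiquimod cream (HFD-IMQ) was compared with skin of mice that ate chow and received vehicle (CD-vehicle). The groups were taken from the sample titles and held 5 mice each, so 10 of the 20 arrays of the series are compared directly. The other 10 arrays, 5 from chow-fed mice given the cream (CD-IMQ) and 5 from HFD-fed mice given vehicle (HFD-vehicle), show how the combined change relates to the cream alone and to the diet alone. All mice were C57/B6 animals of 9 weeks, each measured on 1 array, and the abdomen was shaved in every group. Either 62.5 mg of 5% imiquimod cream (Aldara) or vehicle was applied daily for 5 days, and skin was taken 24 h after the last dose. CD-vehicle skin was therefore shaved and vehicle-treated and not untouched. The sources used here do not give how long the diets were fed, the composition of the diet or the hour of sampling.

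Imiquimod activates Toll-like receptor 7 (and, in humans, 8) on plasmacytoid dendritic cells and macrophages, and repeated application gives mice red, thickened, scaling skin that is used as a model of psoriasis. In that state keratinocytes switch from their resting programme to wound keratins, cornified envelope precursors of the SPRR and LCE3 families, antimicrobial proteins and IL-36 cytokines, and myeloid cells enter the dermis. A high fat diet enlarges fat depots, and dietary fat is known to repress the genes of fatty acid synthesis in several tissues. Whole skin holds epidermis, hair follicles, sebaceous glands, dermis, fat and a sheet of striated muscle, and in such bulk tissue fewer cells of a type and less RNA per cell cannot be told apart.

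Values are log2 expression values, and a change is HFD-IMQ minus CD-vehicle in log2 units ± its standard error unless another pair is named. A gene counts as called where limma, fitted over the 22180 genes and all 20 arrays, gave it a Benjamini-Hochberg adjusted p below 0.05, and "rose" and "fell" are used for called genes. Array medians lay between 2.86 and 3.04, so a group mean no higher than these is near background, and changes that start or end there have an uncertain size. Besides the genes for which this is said below, it holds for Sprr2e, Sprr2f, Sprr2g, Birc5 and Fpr2 in CD-vehicle and for Cyp3a57, Krt71 and Tchh in HFD-IMQ. Markers of epidermis, dermis and fat lay above the array medians in CD-vehicle, with means of 11.13 for Krt10, 10.81 for Col1a1 and 6.35 for Adipoq. Precision is limited by the number of arrays. Over all genes the median standard error was 0.136. CD-vehicle 3 and HFD-IMQ 4 lay farthest from the means of their groups, with 28.4% and 30.0% of the squared distances over all genes, and HFD-vehicle 3 held 42.8% in its group.

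Of the 22180 genes, 1610 (7.26%) were called between HFD-IMQ and CD-vehicle, 873 (3.94%) higher and 737 (3.32%) lower. At an absolute change of at least 1 the calls were 273 higher (1.23%) and 138 lower (0.622%). The ranges of the groups were separate in 1457 genes (6.57%), with HFD-IMQ higher in 839 (3.78%) and lower in 618 (2.79%). The median change over all genes was -0.005. The gene lists that stood farthest above 0 were those of the cornified envelope, the wound epidermis and the antimicrobial proteins, and those farthest below 0 were immediate-early, skeletal muscle and lipid synthesis genes. Tests were made on single genes, and each list is described by its counts and its median.

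**Figure D1:**
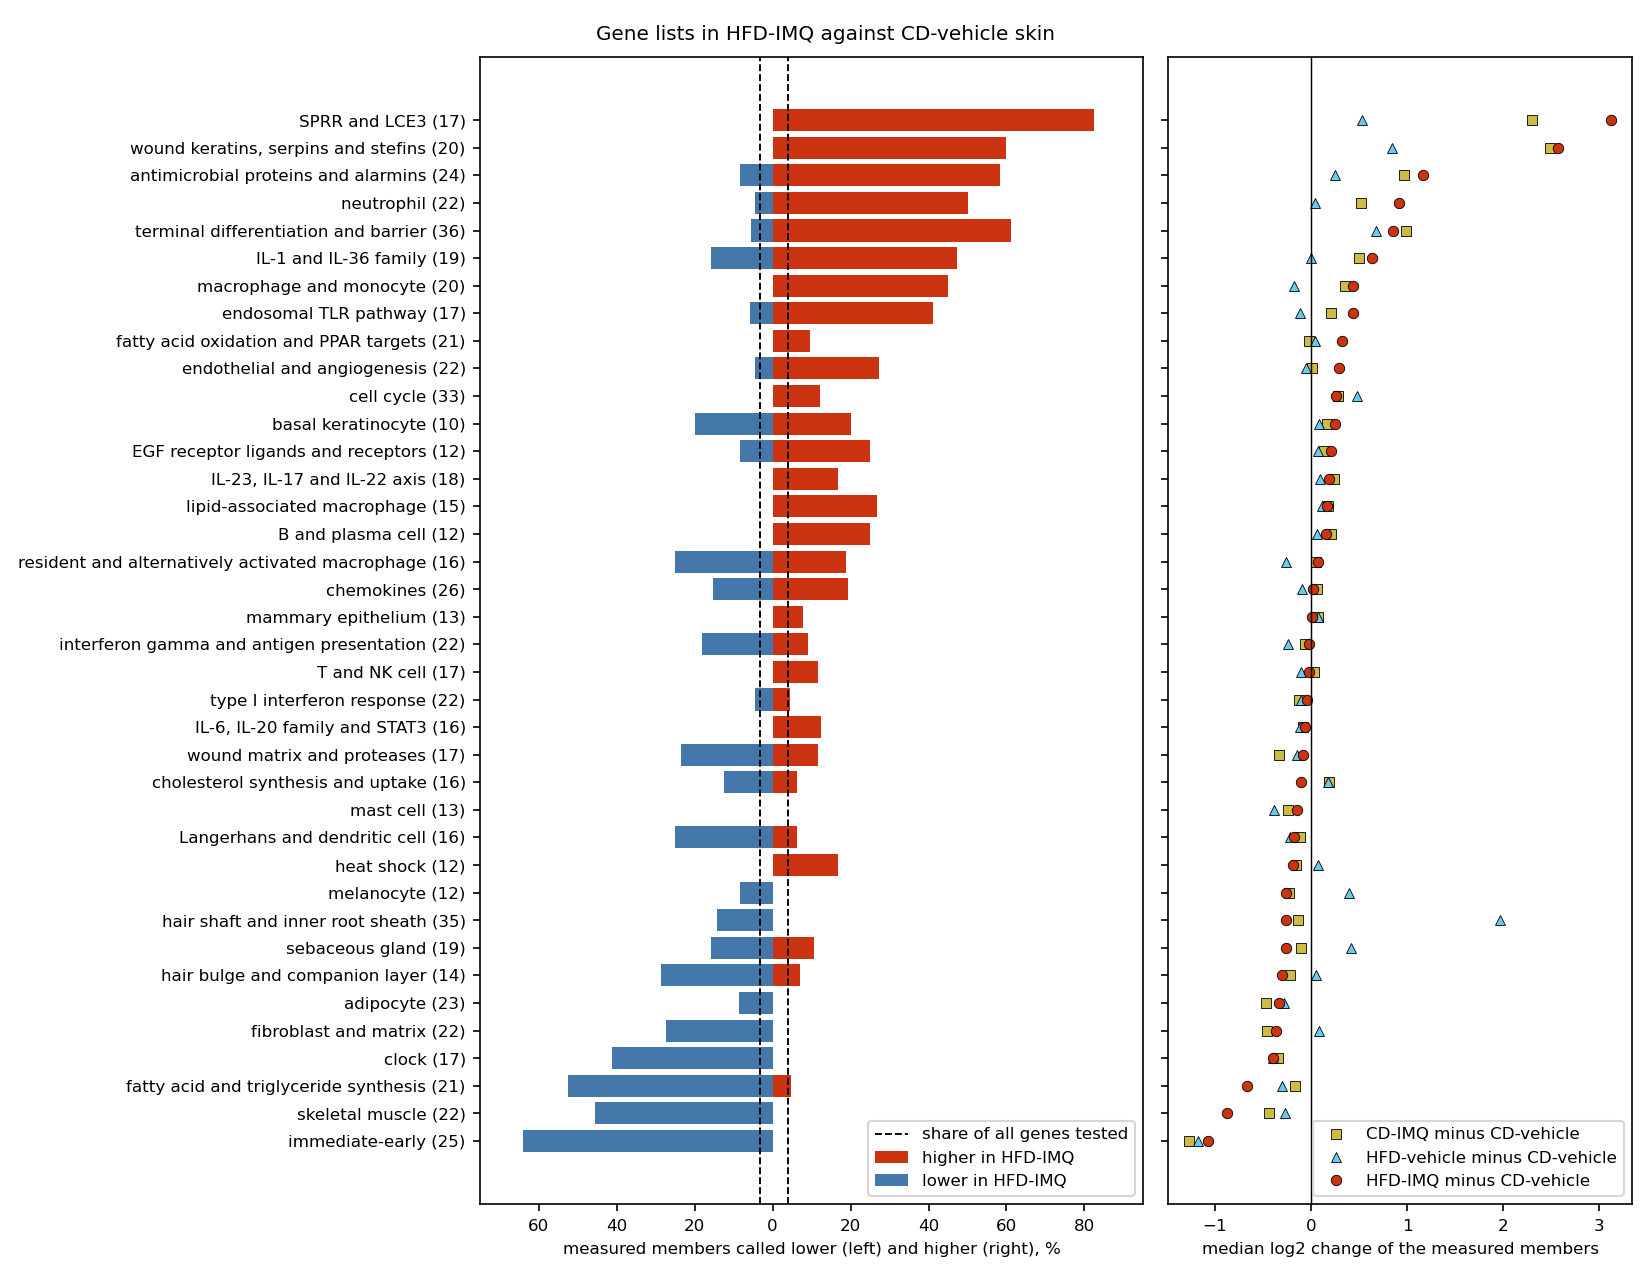
Gene lists in HFD-IMQ against CD-vehicle skin. Left, the percentage of each list's measured members (number in parentheses) called higher (red, to the right) or lower (blue, to the left), with dashed lines at the shares over all 22180 genes, 3.94% higher and 3.32% lower. Right, the median log2 change of the measured members for CD-IMQ (squares), HFD-vehicle (triangles) and HFD-IMQ (circles), each minus the same 5 CD-vehicle arrays. SPRR and LCE3 genes have the highest median in HFD-IMQ (3.12) and immediate-early genes the lowest (-1.08).

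The wound epidermis programme held the largest rises. Keratins 6 and 16 are intermediate filament proteins that keratinocytes make after injury. Krt6b values in CD-vehicle were 3.59, 2.54, 5.28, 4.68 and 3.17, and in HFD-IMQ they were 10.72, 10.20, 10.61, 9.59 and 10.54. Krt16 stood at 2.33, 2.94, 4.59, 5.15 and 2.27 in CD-vehicle and at 9.84, 9.54, 9.81, 8.87 and 9.62 in HFD-IMQ. Every HFD-IMQ array lay above every CD-vehicle array for both keratins, and the CD-vehicle arrays scattered more widely than the HFD-IMQ arrays. The changes were 6.48 ± 0.49 for Krt6b (89.2-fold, limma adjusted p = 3.9e-09) and 6.08 ± 0.42 for Krt16 (67.7-fold, limma adjusted p = 9.71e-10). CD-vehicle values of 2.54 for Krt6b and of 2.33 and 2.27 for Krt16 lay below the array medians, so these folds are uncertain. Krt6a rose by 4.89 ± 0.39. Krt17, a stress keratin that hair follicles also make, changed by 1.10 ± 0.35 and did not pass (limma adjusted p = 0.0587).

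Of 20 measured wound keratins, serpins and stefins 12 rose and 0 fell, with a median of 2.58. Stefins inhibit cysteine proteases. The stefin gene Csta3 had the largest rise among called genes with separate groups, leaving out predicted genes, clone names, small RNAs and receptor families. Its values were 1.11, 1.19, 1.46, 2.31 and 1.43 in CD-vehicle and 9.0, 8.12, 9.28, 7.60 and 9.34 in HFD-IMQ, a change of 7.17 ± 0.39. Its CD-vehicle values all lay below the array medians, so that size is uncertain. Stfa1 and Stfa3, stefins already well above background in CD-vehicle (means 6.80 and 8.35), rose by 4.44 ± 0.37 and 3.29 ± 0.36. Serpinb3a, a clade B serpin of squamous epithelia, rose by 6.28 ± 0.43 from a mean of 2.28, also near background, and Serpinb12 by 3.03 ± 0.34. Gsdmc, a pore-forming gasdermin, rose by 3.40 ± 0.41.

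SPRR and LCE3 proteins are cross-linked into the cornified envelope, and their genes lie together in the epidermal differentiation complex on chromosome 3. Of 17 measured members 14 rose and 0 fell (median 3.12). Promoters of 2 SPRR genes that rose are shown because the members moved together. Each is the 250 bases before the RefSeq start of the gene on GRCm38.p6, written in the direction of transcription, with the motifs TGANTCA (an AP-1 site, the same on both strands) and TATAAA in capitals. Sprr1b lies on the minus strand at chr3:92438780-92439029 and Sprr2d on the plus strand at chr3:92338890-92339139.
Sprr1b: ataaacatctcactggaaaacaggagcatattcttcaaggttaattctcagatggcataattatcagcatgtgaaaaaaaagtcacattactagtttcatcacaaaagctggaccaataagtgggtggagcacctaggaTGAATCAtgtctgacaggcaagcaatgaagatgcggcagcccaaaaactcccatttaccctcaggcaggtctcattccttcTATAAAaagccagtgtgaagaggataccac
Sprr2d: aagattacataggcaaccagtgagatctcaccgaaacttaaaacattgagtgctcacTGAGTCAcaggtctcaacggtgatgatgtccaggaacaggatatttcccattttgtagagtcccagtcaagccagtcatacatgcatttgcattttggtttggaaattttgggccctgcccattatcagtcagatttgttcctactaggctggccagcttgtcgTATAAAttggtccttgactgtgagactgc

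TGANTCA stood in 8 of the 10 SPRR windows (80%) and in 0 of the 6 LCE3 windows, against 6.75% of all 32851 windows of that length. TATAAA, searched on both strands like the other motifs, stood in 9 SPRR windows (90%) and 1 LCE3 window (16.7%), against 12.4% of all. SPRR genes are close copies of each other, so these windows are not independent. A match is a description of the letters and not evidence of a bound site.

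Sprr1b values were 3.24, 3.17, 4.08, 3.71 and 3.26 in CD-vehicle and 8.56, 8.0, 8.22, 7.59 and 8.35 in HFD-IMQ. For Sprr2d they were 1.19, 2.50, 1.21, 3.54 and 1.41 in CD-vehicle and 8.40, 7.90, 8.61, 7.43 and 8.87 in HFD-IMQ. The groups did not overlap for either gene, and 4 of the 5 CD-vehicle values of Sprr2d lay below the array medians. Sprr1b rose by 4.65 ± 0.21 (25.1-fold, limma adjusted p = 2.06e-12) and Sprr2d by 6.28 ± 0.42 (limma adjusted p = 5.33e-10). Sprr2e rose by 5.24 ± 0.29, Sprr2b by 4.16 ± 0.34 and Lce3d by 4.21 ± 0.27. The smallest called rise of the family was that of Sprr2f (1.57 ± 0.19). Because SPRR2 genes are near-identical, a probe set can record signal from more than one of them.

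**Figure D2:**
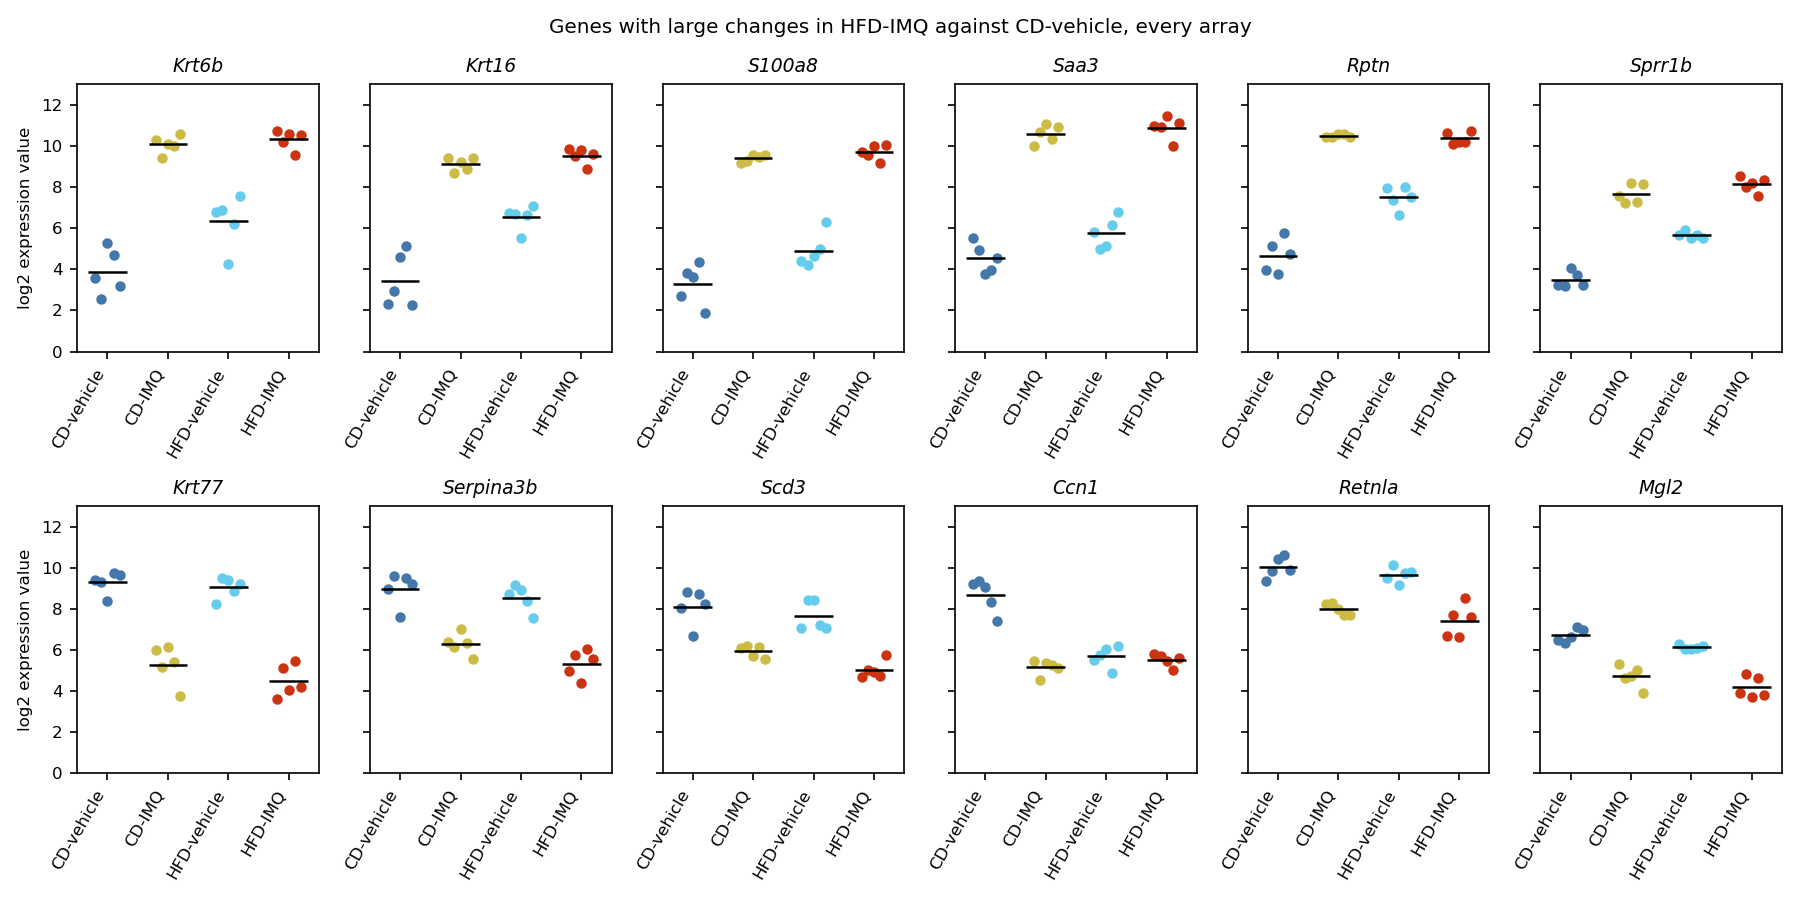
Log2 expression of 12 genes among those with the largest changes in HFD-IMQ against CD-vehicle. Each point is 1 array (5 per group), the black line is the group mean, and all panels share the vertical axis. The upper row holds rises and the lower row falls, and in each panel the 5 HFD-IMQ points lie apart from the 5 CD-vehicle points.

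Antimicrobial proteins and alarmins had 14 risen and 2 fallen members of 24 (median 1.17). S100a8 and S100a9 form calprotectin, which binds zinc and manganese and is made by neutrophils and by inflamed keratinocytes. S100a8 values in CD-vehicle were 2.68, 3.82, 3.62, 4.38 and 1.89, against 9.70, 9.56, 10.02, 9.17 and 10.04 in HFD-IMQ. Saa3, an acute-phase apolipoprotein made locally in inflamed tissue, stood at 5.54, 4.94, 3.78, 3.99 and 4.57 in CD-vehicle and at 10.96, 10.94, 11.46, 10.01 and 11.11 in HFD-IMQ. For both genes the lowest HFD-IMQ array exceeded the highest CD-vehicle array by several log2 units. S100a8 rose by 6.42 ± 0.37 (85.6-fold, limma adjusted p = 5.92e-11), S100a9 by 5.91 ± 0.29 and Saa3 by 6.33 ± 0.34 (80.5-fold). The S100a8 values of 2.68 and 1.89 in CD-vehicle lay below the array medians, so its fold is uncertain.

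Beta-defensins are small cationic peptides that kill microbes. Defb4 rose by 2.71 ± 0.32, Defb14 by 2.72 ± 0.21 and Defb3 by 4.19 ± 0.40, the last 2 from means near background. Lcn2, which traps bacterial siderophores, rose by 2.81 ± 0.18, and Chil1, a chitinase-like secreted protein, by 3.42 ± 0.21. Defb8, another beta-defensin, went the other way, with values of 10.69, 10.78, 5.97, 8.19 and 11.12 in CD-vehicle and 1.72, 5.26, 3.18, 7.84 and 4.45 in HFD-IMQ. Its change of -4.86 ± 1.04 passed (limma adjusted p = 0.00404), but values spread over several log2 units in both groups, and HFD-IMQ 4 lay above CD-vehicle 3. Lyz1, a lysozyme gene, fell (-1.11 ± 0.20).

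The IL-1 and IL-36 family had 9 risen and 3 fallen members of 19 (median 0.63). IL-36 cytokines are released by keratinocytes and act on keratinocytes and dendritic cells. The IL-36 alpha gene Il1f6 had values of 4.30, 4.93, 4.39, 6.32 and 4.40 in CD-vehicle and 9.04, 8.83, 8.64, 8.84 and 9.24 in HFD-IMQ. All HFD-IMQ arrays were higher, and the change was 4.05 ± 0.35 (16.6-fold, limma adjusted p = 3.3e-08). Il1f9 (IL-36 gamma) rose by 3.13 ± 0.22, Il1f8 (IL-36 beta) by 2.96 ± 0.35 and Il1f5, the IL-36 receptor antagonist, by 2.37 ± 0.25. Among the IL-1 ligands Il1a rose by 1.93 ± 0.23 and Il33 by 0.97 ± 0.21, and the antagonist Il1rn rose by 1.51 ± 0.14. Il1b changed by 1.37 ± 0.43 and missed the threshold (limma adjusted p = 0.0537). Of the receptors, Il1r1, the signalling receptor of IL-1, and Il1r2, its decoy, both fell (-0.59 ± 0.14 and -0.81 ± 0.15). Il1rl2, the IL-36 receptor, fell as well (-0.47 ± 0.13), but not without CD-vehicle 1, 3 or 5 or HFD-IMQ 1 (highest adjusted p 0.0701). The inflammasome genes Pycard and Casp1 rose by 0.73 ± 0.13 and 0.62 ± 0.14.

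Cytokines of the IL-23, IL-17 and IL-22 axis, the T cell arm of psoriasis, showed 3 risen and 0 fallen members of 18 (median 0.18). Il17f values were 3.33, 3.43, 3.33, 3.19 and 3.25 in CD-vehicle and 3.88, 3.64, 3.86, 3.62 and 4.07 in HFD-IMQ. The groups did not overlap but lay close together and close to the array medians, and Il17f rose by 0.51 ± 0.13 (limma adjusted p = 0.0208). Without HFD-IMQ 1 or HFD-IMQ 5 that call ended (highest adjusted p = 0.07), and 1 member of the list remained called. Il17a changed by 0.30 ± 0.17 (limma adjusted p = 0.394), and Il22 (-0.04 ± 0.12) and Il23a (-0.01 ± 0.12) did not pass either. Their HFD-IMQ means were 2.85, 1.09 and 2.29, no higher than the array medians, so the size of a change of these 3 genes could not be measured well here. Zc3h12a, which encodes the RNase regnase-1 that IL-17 induces, rose by 0.66 ± 0.13, and Il10rb, a shared receptor chain of IL-10 and IL-22, by 0.45 ± 0.12, a call that ended without CD-vehicle 3 or HFD-IMQ 1 or 5 (highest adjusted p 0.081).

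The terminal differentiation and barrier list had 22 risen and 2 fallen members of 36 (median 0.85). Repetin (Rptn) is a cornified envelope protein that resting interfollicular epidermis makes sparsely. Rptn values were 3.96, 5.12, 3.76, 5.77 and 4.75 in CD-vehicle and 10.65, 10.12, 10.22, 10.20 and 10.76 in HFD-IMQ. The groups lay far apart, and Rptn rose by 5.72 ± 0.29 (52.6-fold, limma adjusted p = 9.25e-12). Casp14, which processes filaggrin, rose by 3.05 ± 0.32, and the transglutaminases Tgm3 and Tgm1, which cross-link the envelope, by 2.45 ± 0.30 and 1.79 ± 0.18. Abca12 (lamellar granule loading) rose by 1.72 ± 0.21, Cers3 (ultra-long ceramides) by 1.76 ± 0.18 and the lipoxygenase Alox12b by 1.56 ± 0.23. Of the same list, Elovl4, an elongase of ultra-long chains, changed by -0.34 ± 0.23 and Aloxe3, which acts after Alox12b, by 0.20 ± 0.13, and neither passed. The keratin pair of the spinous layer moved unequally, Krt1 by 2.11 ± 0.24 and Krt10 by 0.65 ± 0.16.

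Krt77, a type II keratin of the suprabasal interfollicular epidermis, had the largest fall among called genes with separate groups, with the same names left out as for Csta3. Its values were 9.39, 9.31, 8.39, 9.76 and 9.66 in CD-vehicle and 3.62, 5.11, 4.04, 5.46 and 4.18 in HFD-IMQ. No array of one group reached the range of the other, and Krt77 was 28.2-fold lower (-4.82 ± 0.39, limma adjusted p = 1.23e-08). Flg2, a filaggrin relative, fell (-2.05 ± 0.33). In the basal keratinocyte list 2 of 10 rose and 2 fell. Krt14, the main basal keratin, rose by 1.97 ± 0.23 and the integrin Itga6 by 0.47 ± 0.11, while Dst, which anchors keratin to hemidesmosomes, fell (-0.70 ± 0.13). Krt15, a basal and bulge keratin, had HFD-IMQ values of 5.87, 6.01, 5.36, 5.68 and 6.03, which lay below the values of all 15 other arrays, and changed by -1.63 ± 0.24.

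Among 12 EGF receptor ligands and receptors 3 rose and 1 fell, and 5 rose without HFD-IMQ 4. The ligands Ereg (epiregulin, 1.76 ± 0.14), Epgn (epigen, 1.27 ± 0.23) and Hbegf (0.61 ± 0.18) rose, and the feedback inhibitor Errfi1 fell (-2.30 ± 0.26). Median Errfi1 values were 9.49 in CD-vehicle, 6.75 in CD-IMQ, 7.01 in HFD-vehicle and 6.83 in HFD-IMQ. Errfi1 was thus also lower with the cream alone and with the diet alone. The Hbegf call ended without CD-vehicle 3, 4 or 5, HFD-IMQ 1, 2, 3 or 5 or HFD-vehicle 1 or 4 and with only the 10 arrays compared in the fit (highest adjusted p 0.144). Of 33 cell cycle genes 4 rose and 0 fell (median 0.26), the mitotic genes Ccnb2 (0.74 ± 0.19), Birc5 (0.63 ± 0.16), Bub1b (0.53 ± 0.15) and Cdc20 (0.50 ± 0.14). Of the 33 genes 0 rose and 1 fell without CD-vehicle 3, 1 rose without HFD-IMQ 1 and 2 rose without CD-vehicle 4, CD-vehicle 5 or HFD-IMQ 3. Adjusted p reached 0.113 for Bub1b, 0.0978 for Cdc20, 0.0634 for Ccnb2 and 0.0503 for Birc5, and the Bub1b call also ended with only the 10 arrays compared.

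Macrophage genes were higher in HFD-IMQ. In the macrophage and monocyte list 9 of 20 rose and 0 fell (median 0.44), or 1 fell without CD-IMQ 2 or HFD-IMQ 2. The mean over the list ran from 6.62 to 6.87 in CD-vehicle and from 7.08 to 7.61 in HFD-IMQ. Adgre1, the F4/80 antigen of mature macrophages, had values of 6.93, 6.85, 7.10, 7.06 and 7.18 in CD-vehicle and 9.35, 8.39, 8.47, 8.09 and 8.55 in HFD-IMQ. All HFD-IMQ arrays were higher, HFD-IMQ 1 most of all, and Adgre1 rose by 1.54 ± 0.18 (2.92-fold, limma adjusted p = 5.19e-06). Aif1 rose by 1.32 ± 0.17, the Fc receptor chain Fcer1g by 1.10 ± 0.18 and the lysosomal glycoprotein Cd68 by 1.03 ± 0.18. The dermal resident markers Mrc1 (0.09 ± 0.16) and Cd163 (0.32 ± 0.14) did not pass.

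Within the list of resident and alternatively activated macrophages, 3 of 16 rose and 4 fell. Retnla (RELM alpha), induced by IL-4 and IL-13, had values of 9.35, 9.82, 10.43, 10.61 and 9.88 in CD-vehicle and 6.66, 7.67, 6.62, 8.52 and 7.61 in HFD-IMQ. Mgl2, a galactose lectin of dermal dendritic cells and macrophages, had 6.48, 6.32, 6.61, 7.13 and 6.94 in CD-vehicle and 3.89, 4.83, 3.71, 4.63 and 3.79 in HFD-IMQ. Both genes were lower in every HFD-IMQ array, with changes of -2.60 ± 0.29 (6.07-fold lower) and -2.53 ± 0.23 (5.76-fold lower), and the eosinophil attractant Ccl24 fell (-2.31 ± 0.25). Chil3, another product of alternatively activated macrophages, rose by 2.67 ± 0.23, and Arg1 (1.09 ± 0.27) and Stab1 (0.57 ± 0.17) were the other called rises. Without HFD-IMQ 1, 1 of the 16 genes rose, with an adjusted p of 0.0504 for Arg1, and Stab1 also lost its call without CD-vehicle 1, 2, 3 or 4 or HFD-IMQ 1, 2, 3 or 5, with only the 10 arrays compared and after quantile normalization (highest adjusted p 0.146). The fourth gene that fell was Timd4 (-0.75 ± 0.21), an efferocytosis receptor of resident macrophages, whose call ended without CD-vehicle 4 or 5 or HFD-IMQ 1 or 3 and with only the 10 arrays compared (highest adjusted p 0.0928). In the lipid-associated macrophage list (15 genes) 4 rose and 0 fell, or 1 fell without HFD-IMQ 4. Fabp5, a fatty acid binding protein that keratinocytes also make, had the largest of these rises (1.54 ± 0.19), and Lipa, the lysosomal acid lipase (0.77 ± 0.15), Ctsl (0.55 ± 0.13) and Lgals3 (0.42 ± 0.12) were the others. The Lgals3 call ended without CD-vehicle 1, 3 or 5, HFD-IMQ 1, 3 or 5 or HFD-vehicle 2, with only the 10 arrays compared and with the replicate number as a block (highest adjusted p 0.134).

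Of 22 neutrophil genes 11 rose and 1 fell (median 0.92), and 2 of the risen genes are S100a8 and S100a9. Cxcr2, the receptor for neutrophil-attracting chemokines, had values of 3.94, 3.49, 3.60, 3.73 and 3.70 in CD-vehicle and 5.71, 4.91, 5.22, 5.62 and 5.24 in HFD-IMQ. The ranges were separate, and Cxcr2 rose by 1.65 ± 0.18 (limma adjusted p = 1.2e-06). Csf3r, the G-CSF receptor, rose by 1.41 ± 0.18, the integrin Itgam by 1.28 ± 0.19, the Fc receptor Fcgr4 by 2.66 ± 0.30 and the formyl peptide receptor Fpr2 by 1.32 ± 0.28. Fcgr4, and the stefin Stfa2l1 of the wound list (4.36 ± 0.28), started from CD-vehicle means below the array medians. The gene that fell was Il1r2, given above. The defining neutrophil gene Ly6g (means 1.73 and 1.72) and the granule genes Mpo (2.31 and 2.33) and Elane (2.29 and 2.44) lay below the array medians in both groups. How much of the S100a8 and S100a9 signal came from neutrophils was not tested.

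Among 26 chemokines 5 rose and 4 fell. The B cell attractant Cxcl13 rose by 2.01 ± 0.29, Ccl3 by 1.79 ± 0.34 from near background, the platelet chemokine Ppbp by 1.42 ± 0.31, the stromal factor Cxcl12 by 0.93 ± 0.17 and Cxcl16 by 0.90 ± 0.14. The monocyte attractants Ccl2 (-0.94 ± 0.22) and Ccl7 (-1.27 ± 0.28) fell, as did the eosinophil attractants Ccl11 (-0.88 ± 0.20) and Ccl24, given above. Median Ccl7 values were 7.02 in CD-vehicle, 5.48 in CD-IMQ, 5.41 in HFD-vehicle and 5.43 in HFD-IMQ. For Ccl2 they were 5.29, 4.50, 4.40 and 4.45 in the same order, so both were also lower with either treatment alone. The neutrophil chemokines Cxcl1 and Cxcl2 did not pass, with Cxcl1 at -0.49 ± 0.18 and Cxcl2 at 0.36 ± 0.36.

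The endosomal Toll-like receptor pathway, to which the drug's receptor belongs, had 7 risen and 1 fallen member of 17 (median 0.43). Tlr7 values were 4.95, 5.29, 4.55, 5.21 and 5.22 in CD-vehicle and 5.99, 5.79, 5.51, 6.07 and 6.19 in HFD-IMQ. Every HFD-IMQ array lay above every CD-vehicle array, and Tlr7 rose by 0.87 ± 0.17 (1.82-fold, limma adjusted p = 0.00157). Tlr13, a mouse receptor for bacterial ribosomal RNA, had values of 4.18, 4.20, 4.24, 4.71 and 4.24 in CD-vehicle and 6.64, 6.18, 6.15, 5.97 and 6.47 in HFD-IMQ and rose by 1.97 ± 0.16. Unc93b1, which carries these receptors to the endosome, rose by 1.04 ± 0.17, Tlr8 by 0.91 ± 0.15 and Tlr9 by 0.62 ± 0.14. Tnfaip3 (A20), which restrains NF-kappa-B signalling, fell (-0.92 ± 0.17). Its medians were 5.44 in CD-vehicle, 4.33 in CD-IMQ, 4.74 in HFD-vehicle and 4.53 in HFD-IMQ, so it was also lower with either treatment alone. Of 22 type I interferon response genes 1 rose, the antiviral enzyme Rsad2 (0.87 ± 0.22), and 1 fell, the ISG15 protease Usp18 (-0.49 ± 0.14). The Rsad2 call ended without HFD-IMQ 1 (adjusted p 0.0531) and the Usp18 call without CD-vehicle 2, 3, 4 or 5 or HFD-IMQ 1 or 2 (highest 0.0887). The number of fallen genes in that list was 0 without CD-vehicle 3, CD-vehicle 4, HFD-IMQ 1 or HFD-IMQ 2, and 2 without CD-vehicle 2. Median Usp18 values were 5.01 in CD-vehicle, 4.46 in CD-IMQ, 4.38 in HFD-vehicle and 4.58 in HFD-IMQ. Usp18 was thus also lower with either treatment alone.

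Of 17 T and NK cell genes 2 rose, Gzma (1.23 ± 0.27, from near background) and Cd4 (0.58 ± 0.14), and Cd3e changed by -0.01 ± 0.17 (limma adjusted p = 0.993). Among 16 Langerhans and dendritic cell genes 4 fell and 1 rose, Sirpa (0.54 ± 0.14), and that rise ended without HFD-IMQ 1 and with only the 10 arrays compared (highest adjusted p 0.053). Besides Mgl2, the genes that fell were the maturation marker Cd83 (-1.52 ± 0.24), the plasmacytoid dendritic cell lectin Siglech (-0.88 ± 0.18) and langerin, Cd207 (-0.61 ± 0.17). Median Cd83 values were 6.72 in CD-vehicle, 5.25 in CD-IMQ, 5.42 in HFD-vehicle and 4.95 in HFD-IMQ, so it was also lower with either treatment alone. The Cd207 call ended without CD-vehicle 4 or 5 or HFD-IMQ 1, 3 or 4 (highest adjusted p 0.0948). Among interferon gamma and antigen presentation genes 4 of 22 fell, all class II genes: H2-Ab1 (-0.66 ± 0.12), H2-Aa (-0.64 ± 0.13), H2-Eb1 (-0.54 ± 0.12) and H2-DMa (-0.41 ± 0.11). Irf8 (0.64 ± 0.17) and Ifngr2 (0.36 ± 0.11) rose, but none of the list rose without CD-vehicle 5 or HFD-IMQ 1, and 1 rose without any 1 of 13 further arrays, namely CD-IMQ 2, 3 or 4, CD-vehicle 1, 2 or 4, HFD-IMQ 2, 4 or 5 and HFD-vehicle 1, 2, 4 or 5. Adjusted p reached 0.143 for Ifngr2, 0.0742 for Irf8 and 0.0784 for H2-DMa, which was lost without CD-vehicle 2 or 4 or HFD-IMQ 3, 4 or 5. The Ifngr2 call also ended with only the 10 arrays compared, after quantile normalization and with the replicate block, and the Irf8 call with the mean of all features. Each of 13 mast cell genes missed the threshold, Cpa3 among them (-0.11 ± 0.18).

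Immediate-early genes encode transcription factors and feedback proteins that cells switch on within minutes of a stimulus and off again soon after. Of 25 measured members 16 fell and 0 rose (median -1.08). Promoters of 3 that fell are shown because the members moved together. Each is the 250 bases before the RefSeq start on GRCm38.p6 in the direction of transcription. Capitals mark TGACG, the core of a cyclic AMP response element, on either strand (CGTCA where it lies on the other), and in Fos also TATAAA. Fos lies on the plus strand at chr12:85473640-85473889, Nr4a1 on the plus strand at chr15:101266596-101266845 and Dusp1 on the minus strand at chr17:26508473-26508722.
Fos: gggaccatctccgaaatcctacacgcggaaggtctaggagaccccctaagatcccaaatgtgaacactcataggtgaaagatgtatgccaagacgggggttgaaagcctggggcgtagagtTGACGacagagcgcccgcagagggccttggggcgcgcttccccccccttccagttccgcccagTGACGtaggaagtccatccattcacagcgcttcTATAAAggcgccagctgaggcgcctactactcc
Nr4a1: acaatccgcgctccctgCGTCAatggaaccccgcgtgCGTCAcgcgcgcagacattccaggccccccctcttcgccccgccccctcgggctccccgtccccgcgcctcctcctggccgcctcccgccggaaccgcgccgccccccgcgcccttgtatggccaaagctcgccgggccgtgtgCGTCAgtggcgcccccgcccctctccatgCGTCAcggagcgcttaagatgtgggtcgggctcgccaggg
Dusp1: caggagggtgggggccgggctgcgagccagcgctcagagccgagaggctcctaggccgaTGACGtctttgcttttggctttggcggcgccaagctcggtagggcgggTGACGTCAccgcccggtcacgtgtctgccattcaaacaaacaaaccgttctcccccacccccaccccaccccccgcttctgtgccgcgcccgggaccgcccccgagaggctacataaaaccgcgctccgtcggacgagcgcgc

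Of the 25 genes 20 had a promoter in the RefSeq table, with 26 windows, and TGACG stood in 17 of these (65.4%) against 17.8% of all 32851 windows, or in 14 of the 20 genes (70%) against 19.8% of genes. The serum response element core, the CArG box, stood in 5 windows (19.2% against 1.47%), 4 of Egr2 and 1 of Zfp36, so that 2 of the 20 genes (10%) held it against 1.62% of genes. In Dusp1 a pair of the 3 matches overlap as 1 full palindrome. These shares describe the letters of the windows, several genes have more than 1 window, and nothing follows from them about a factor's binding.

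Fos values in CD-vehicle were 8.05, 8.33, 8.55, 8.06 and 7.10, and in HFD-IMQ they were 6.36, 5.83, 5.71, 4.06 and 5.93. Nr4a1, an orphan nuclear receptor, stood at 8.37, 8.54, 8.21, 6.03 and 5.74 in CD-vehicle and at 4.81, 4.90, 4.51, 4.69 and 4.47 in HFD-IMQ. Dusp1, a phosphatase that shuts off MAP kinases, had 9.49, 9.67, 9.77, 9.01 and 8.21 in CD-vehicle and 7.58, 6.99, 6.66, 5.89 and 7.18 in HFD-IMQ. HFD-IMQ arrays were lower throughout, and CD-vehicle arrays of Nr4a1 scattered more than HFD-IMQ arrays. The changes were -2.44 ± 0.41 for Fos (5.43-fold lower, limma adjusted p = 0.000369), -2.71 ± 0.39 for Nr4a1 and -2.37 ± 0.30 for Dusp1. Ccn1, a matricellular protein, fell most (-3.15 ± 0.30, 8.87-fold lower), Egr1 was 7.61-fold lower (-2.93 ± 0.35), and Zfp36, which degrades cytokine mRNAs, fell too (-2.05 ± 0.27).

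The 2 other groups were set beside these values for the same genes. Fos values were 5.84, 4.89, 4.68, 3.97 and 4.87 in CD-IMQ and 5.63, 5.83, 5.89, 3.92 and 5.93 in HFD-vehicle, so the 3 groups other than CD-vehicle overlapped and lay below it. Against the same CD-vehicle arrays 18 of the 25 genes were called lower in CD-IMQ (median -1.27) and 16 in HFD-vehicle (median -1.17), where 7.02% and 0.956% of all genes were called lower (10.9% and 2.18% in either direction). These comparisons share their CD-vehicle arrays with the combined one and are not independent of it. Between HFD-IMQ and HFD-vehicle 0 of the 25 were called by limma, in a comparison that called 1306 genes (5.89%). The immediate-early list mean ran from 6.04 to 7.33 in CD-vehicle, from 5.21 to 5.52 in CD-IMQ, from 5.22 to 5.65 in HFD-vehicle and from 5.02 to 5.70 in HFD-IMQ. The lowest CD-vehicle list mean thus lay above the highest of the 15 other arrays.

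**Figure D3:**
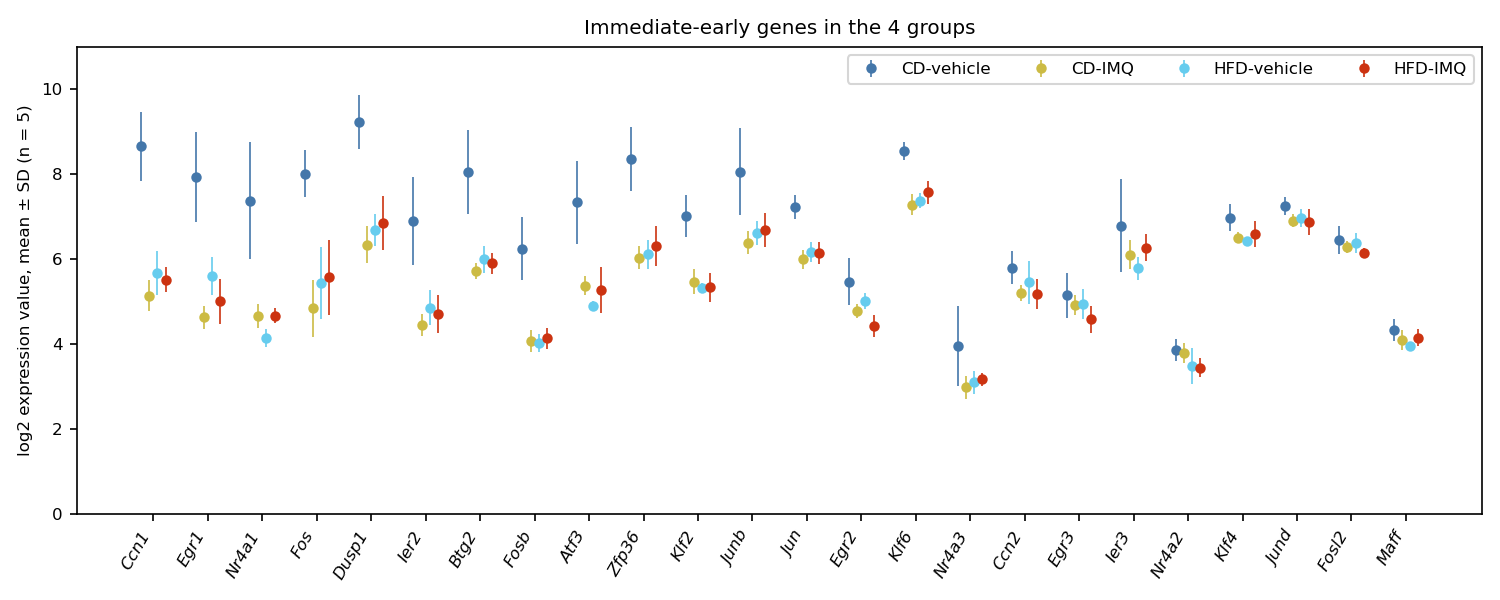
Immediate-early genes in the 4 groups, as mean log2 expression ± SD over 5 arrays, ordered by the change in HFD-IMQ against CD-vehicle, for 24 of the 25 measured genes. For the genes at the left the CD-vehicle mean lies above the means of the 3 other groups, as for Fos (8.02 against 4.85, 5.44 and 5.58).

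Clock genes drive the daily rhythm of skin. Of 17 measured 7 fell and 0 rose (median -0.40). Per1 values were 7.53, 7.47, 7.20, 6.86 and 6.99 in CD-vehicle and 6.63, 6.58, 5.94, 6.12 and 6.25 in HFD-IMQ. They did not overlap, and Per1 fell (-0.91 ± 0.15, limma adjusted p = 0.000335). The repressors Cry2 (-0.92 ± 0.16) and Bhlhe41 (-1.16 ± 0.21) fell as well. With CD-IMQ and HFD-vehicle set against the same CD-vehicle arrays, Per1 changed by -0.92 ± 0.15 and -0.96 ± 0.15.

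Genes of fatty acid and triglyceride synthesis fell, 11 of 21 lower and 1 higher (median -0.67). Scd3 and Scd1 are stearoyl-CoA desaturases, Scd3 being typical of sebocytes. Scd3 had values of 8.03, 8.79, 6.68, 8.74 and 8.23 in CD-vehicle and 4.67, 4.99, 4.90, 4.70 and 5.73 in HFD-IMQ. Fasn, fatty acid synthase, had 9.82, 9.84, 10.87, 10.65 and 11.05 in CD-vehicle and 7.22, 9.33, 8.80, 10.50 and 7.34 in HFD-IMQ. The Scd3 groups were separate, while for Fasn HFD-IMQ 4 reached into the CD-vehicle range and HFD-IMQ 1 and 5 lay far below it. Scd3 was 8.54-fold lower (-3.09 ± 0.34, limma adjusted p = 1.68e-06). Fasn (-1.81 ± 0.44, limma adjusted p = 0.0114), Scd1 (-1.25 ± 0.26) and the elongases Elovl6 (-1.21 ± 0.24) and Elovl5 (-1.01 ± 0.18) also fell. The Fasn call ended with only the 10 arrays compared in the fit (adjusted p = 0.0565). Elovl1, which makes very long chains for barrier ceramides, rose by 0.66 ± 0.14.

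Fat genes stood apart in HFD-IMQ 4 as well. The synthesis list mean was 7.90 in HFD-IMQ 4, 6.48 to 7.09 in the other 4 HFD-IMQ arrays and 7.35 to 8.04 in CD-vehicle. The adipocyte list mean was 8.36 in HFD-IMQ 4, 6.29 to 7.25 in the other 4 and 6.68 to 7.97 in CD-vehicle. The mean of fatty acid oxidation and PPAR targets was 7.01 in HFD-IMQ 4, 5.84 to 6.18 in the other 4 and 5.61 to 6.17 in CD-vehicle. HFD-IMQ 4 was thus the highest HFD-IMQ array for all 3 lists. Ucp1, the uncoupling protein of brown fat, had values of 2.76, 2.62, 8.14, 9.58 and 3.18 in HFD-IMQ and 2.55, 2.75, 2.77, 3.05 and 2.64 in CD-vehicle. Of these 10 arrays it was high in HFD-IMQ 3 and 4, in CD-IMQ 2 it was 7.16, and its change of 2.50 ± 1.05 did not pass (limma adjusted p = 0.185). The part of these fat markers in the fall of synthesis genes was not tested.

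The number of fallen synthesis genes depended on single arrays. It was 5 without CD-vehicle 4, HFD-IMQ 3 or HFD-IMQ 5, 6 without CD-vehicle 3, CD-vehicle 5 or HFD-IMQ 1, and 7 without CD-IMQ 5, HFD-IMQ 2 or HFD-vehicle 2. In the single-treatment groups, set against the same CD-vehicle arrays, members had different values. With the cream alone 2 of the 21 were called higher and 2 lower, where 3.91% and 7.02% of all genes were. With the diet alone 0 were called higher and 3 lower (median -0.30), where 1.22% and 0.956% of all genes were. Fasn changed by -0.28 ± 0.44 in CD-IMQ and by -1.85 ± 0.44 in HFD-vehicle, and its HFD-IMQ against CD-IMQ difference was -1.53 ± 0.44 (limma adjusted p = 0.288). Scd3 changed by -2.16 ± 0.34 in CD-IMQ and by -0.45 ± 0.34 in HFD-vehicle, and Elovl5 by -0.56 ± 0.18 and 0.22 ± 0.18. Among 21 genes of fatty acid oxidation and PPAR targets 2 rose, Pdk4, which spares glucose by blocking pyruvate dehydrogenase (1.02 ± 0.23), and the nuclear receptor Ppard (0.81 ± 0.13), and 4 rose without CD-vehicle 4.

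**Figure D4:**
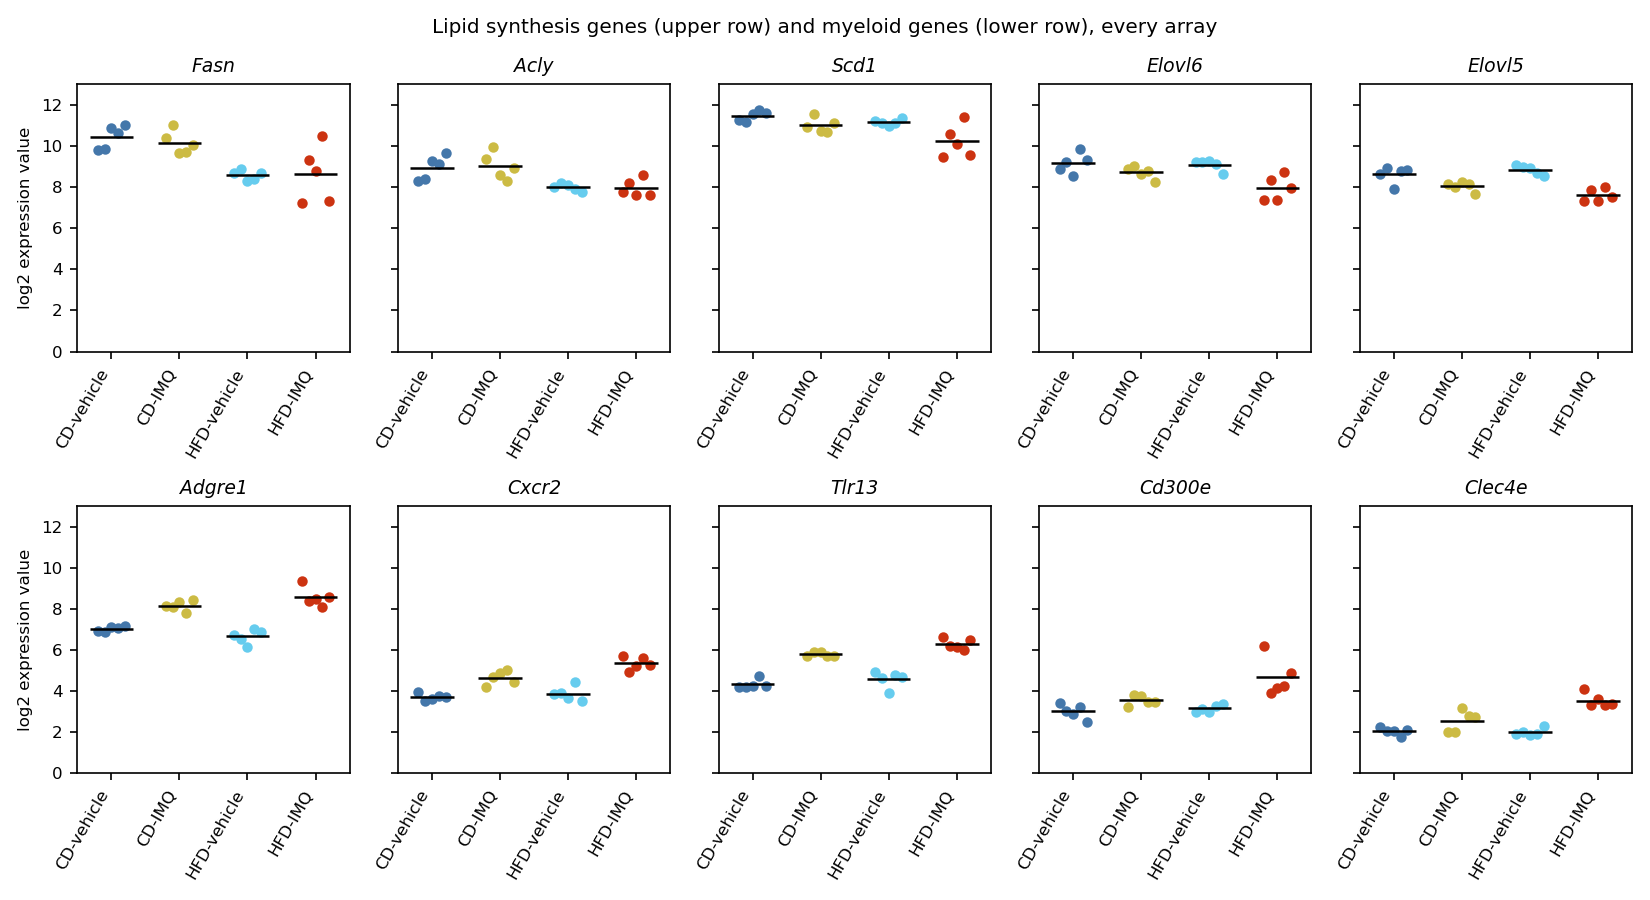
Log2 expression of 5 lipid synthesis genes (upper row) and 5 myeloid genes (lower row). Each point is 1 array (5 per group) and the black line is the group mean. In HFD-IMQ, Fasn runs from 7.22 to 10.50, and all 5 HFD-IMQ points of Tlr13, Cd300e and Clec4e lie above the 15 other points.

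Hair shaft and inner root sheath genes numbered 35, of which 5 fell and 0 rose (median -0.26), all inner root sheath genes: Tchh (-3.04 ± 0.84), Krt71, Krt25 (-2.34 ± 0.55), Krt73 (-2.19 ± 0.49) and Krt28 (-1.79 ± 0.47). Krt71, an inner root sheath keratin, had values of 6.87, 7.01, 1.85, 5.77 and 5.13 in CD-vehicle, 5.20, 2.11, 2.20, 2.63 and 2.19 in HFD-IMQ and 9.93, 9.49, 11.39, 8.80 and 8.69 in HFD-vehicle. CD-vehicle and HFD-IMQ arrays overlapped, and HFD-vehicle arrays were the highest. Krt71 changed by -2.46 ± 0.75 (limma adjusted p = 0.0486). That call ended without any single array other than CD-IMQ 2, CD-vehicle 3, HFD-IMQ 1 and HFD-vehicle 3. It also ended with only the 10 arrays compared, after either change of scaling and with limma's trend and robust prior (highest adjusted p = 0.141). Tchh lost its call without CD-vehicle 1, 2 or 5 or HFD-IMQ 2, 3, 4 or 5, with only the 10 arrays compared and with that prior (highest adjusted p 0.107) and Krt28 without CD-vehicle 1 or 2 or HFD-IMQ 5 and with that prior (highest 0.0652). Leaving out CD-vehicle 1, CD-vehicle 2 or HFD-IMQ 5 gave 2 fallen genes, and the number was 3 without CD-vehicle 5, HFD-IMQ 2, HFD-IMQ 3 or HFD-IMQ 4, and 8 without HFD-vehicle 3. The list mean ran from 2.92 to 3.96 in CD-vehicle, from 4.64 to 8.11 in HFD-vehicle and from 2.74 to 3.58 in HFD-IMQ. With the diet alone 21 of the 35 were called higher than in CD-vehicle (median 1.96), where 1.22% of all genes were. In the bulge and companion layer list 4 of 14 fell and 1 rose. Besides Krt15 these falls were in the follicle stem cell receptor Lgr5 (-1.05 ± 0.22), Cd34 (-0.98 ± 0.17) and Postn (-0.47 ± 0.14), and the rise was in Itga6, given above. Which cells of the skin gave the Cd34 and Postn signal was not tested. The Postn call ended without CD-IMQ 2, 3, 4 or 5, CD-vehicle 1, 3, 4 or 5, HFD-IMQ 3, 4 or 5 or HFD-vehicle 1, 2 or 4, with only the 10 arrays compared, with the replicate block and after shifting medians (highest adjusted p 0.143).

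Of 19 sebaceous gland genes 3 fell and 2 rose, with 6 fallen without CD-vehicle 3 and 5 without HFD-IMQ 4. Gsdma, a gasdermin of upper follicle and differentiating epidermis, rose by 1.48 ± 0.18, and Prdm1, a transcriptional repressor, by 0.89 ± 0.16. The melanocortin receptor Mc5r fell (-0.99 ± 0.25) besides Scd1 and Scd3, and lost its call without HFD-IMQ 1 or 3 (highest adjusted p 0.0576). Serpina3b, a secreted serpin, had values of 8.98, 9.59, 7.59, 9.50 and 9.19 in CD-vehicle and 4.95, 5.75, 4.36, 6.05 and 5.53 in HFD-IMQ and was 12.5-fold lower (-3.64 ± 0.36), with separate groups. Mup3, a major urinary protein gene, fell (-2.76 ± 0.34).

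In the fibroblast and matrix list 6 of 22 fell and 0 rose (median -0.36). The count was 2 without HFD-IMQ 5 and 3 without CD-vehicle 2, CD-vehicle 5 or HFD-IMQ 3. Col1a1 had values of 11.26, 11.11, 10.83, 10.01 and 10.85 in CD-vehicle and 10.50, 10.60, 10.14, 9.34 and 10.29 in HFD-IMQ, which overlapped, and its change of -0.64 ± 0.23 did not pass (limma adjusted p = 0.116). Col14a1, a fibril-associated collagen (-0.72 ± 0.16), and Dpp4, a dipeptidase of dermal fibroblasts (-0.82 ± 0.15), fell most. In the wound matrix list 2 of 17 rose and 4 fell, or 4 rose without HFD-IMQ 4. Tnc (tenascin C), an early wound matrix protein, rose by 2.84 ± 0.23, the protease inhibitor Timp1 by 1.27 ± 0.18, and fibronectin (Fn1, -0.80 ± 0.19), Adamts1 (-0.78 ± 0.17), Timp3 (-0.75 ± 0.17) and Plau (-0.52 ± 0.14) fell. The Plau call ended without CD-vehicle 1, 3 or 5 or HFD-IMQ 1, 3, 4 or 5 (highest adjusted p 0.0942). Median Adamts1 values were 6.32 in CD-vehicle, 5.40 in CD-IMQ, 5.42 in HFD-vehicle and 5.43 in HFD-IMQ. Adamts1 was thus also lower with either treatment alone.

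Endothelial and angiogenesis genes had 6 risen and 1 fallen member of 22 (median 0.29). The leukocyte adhesion molecule Vcam1 rose by 1.04 ± 0.17, Plvap of fenestrated vessels by 0.92 ± 0.21, P-selectin (Selp) by 0.86 ± 0.19 and Emcn by 0.81 ± 0.16. The gene that fell, Vegfa (-0.72 ± 0.22, limma adjusted p = 0.0486), lost its call without any single array other than CD-IMQ 2, CD-IMQ 4, CD-vehicle 1, CD-vehicle 5, HFD-IMQ 4 and HFD-vehicle 3, and 2 genes fell without either of the last 2 (highest adjusted p for Vegfa 0.157). The Vegfa call also ended with only the 10 arrays compared, with the replicate block, after shifting medians and with the trend and robust prior. In the adipocyte list 2 of 23 fell, Lep and Npr3 (-1.79 ± 0.53), and 1 without CD-vehicle 3, CD-vehicle 4, CD-vehicle 5, HFD-IMQ 1, HFD-IMQ 3 or HFD-IMQ 5, where, and with that prior, Npr3 lost its call (highest adjusted p 0.125). Lep had values of 7.13, 8.08, 8.74, 9.15 and 7.38 in CD-vehicle and 6.12, 6.43, 5.92, 7.39 and 5.41 in HFD-IMQ. HFD-IMQ 4 lay among the lowest CD-vehicle arrays, the other 4 below all of them, and Lep, the leptin gene, fell (-1.84 ± 0.45, limma adjusted p = 0.0123). Adipoq (adiponectin) changed by -0.26 ± 0.33 and did not pass.

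Skeletal muscle genes had 10 fallen and 0 risen members of 22 (median -0.87). The calcium buffer Pvalb (-1.74 ± 0.37), titin (Ttn, -1.45 ± 0.36) and the fast myosin light chain Mylpf (-1.20 ± 0.29) fell most. Mstn (myostatin), a muscle growth inhibitor outside the list, fell (-2.41 ± 0.41) to a mean near background. The abundant markers Acta1 (-0.50 ± 0.23) and Ckm (-0.80 ± 0.30) did not pass. The mean over the list ran from 6.65 to 7.86 in CD-vehicle and from 5.52 to 7.08 in HFD-IMQ, so the ranges overlapped. How much muscle each sample held, and its part in the other falls, was not tested.

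The difference between the combined change and the change with the cream alone is HFD-IMQ against CD-IMQ, since the CD-vehicle arrays cancel. Limma called 0 of 22180 genes (0%) in it. At an unadjusted p below 0.05 there were 2289 genes, the lowest adjusted p was 0.051, and 33 genes differed by at least 1. The 95% intervals show what sizes remain possible: they ran from -0.45 to 1.29 for Krt16, from -0.48 to 1.06 for S100a8, from -0.65 to 0.80 for Il1f6 and from -0.12 to 1.58 for Fos. For Adgre1 the interval was 0.04 to 0.81, for Cxcr2 0.34 to 1.08 and for Scd3 -1.64 to -0.23, which lay to one side of 0 without passing over all genes. A gene that was not called is not thereby shown to be alike in the 2 groups.

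The count of 0 rested in part on 1 array. Without HFD-IMQ 4 limma called 20 genes, 13 higher and 7 lower than in CD-IMQ. Among them, chosen here after their values were seen, Sprr2f (1.04 ± 0.18), Sprr2g (1.19 ± 0.23), Pdk4 (1.02 ± 0.18) and Clec4e (1.05 ± 0.21) were higher, and Fasn (-2.0 ± 0.37), Me1 (-1.40 ± 0.26) and Scd1 (-1.07 ± 0.20) were lower. Leaving out any other single array gave between 0 and 3 genes.

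Against the diet alone, the difference of the combined change is HFD-IMQ against HFD-vehicle, where 1306 genes were called, 809 higher (3.65%) and 497 lower (2.24%). S100a8 was higher by 4.78 ± 0.37, Krt16 by 2.99 ± 0.42, Il1f6 by 2.17 ± 0.35 and Adgre1 by 1.92 ± 0.18. Krt77 (-4.56 ± 0.39) and Scd3 (-2.64 ± 0.34) were lower. In the macrophage list 15 of 20 genes were called higher than with the diet alone, and in the hair list 22 of 35 lower.

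The combined change can be set against the sum of the changes with cream alone and with diet alone, and the test of that difference is the interaction term. Limma called 147 genes (0.663%), 105 with a combined change above the sum (0.473%) and 42 below it (0.189%). The split depended on scaling: 166 and 38 after each array was shifted to one median, and 58 and 41 after quantile normalization. Immediate-early genes made up 13 of the positive terms. For Ccn1 the single changes of -3.52 and -2.99 sum to -6.51, against a combined change of -3.15, and the interaction was 3.36 ± 0.42 (limma adjusted p = 0.00124). Nr4a1 (3.24 ± 0.55), Fos (3.31 ± 0.58), Dusp1 (3.05 ± 0.42), Egr1 (2.72 ± 0.50) and Zfp36 (2.51 ± 0.39) had terms of the same sign.

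Several epidermal genes that were called higher with the diet alone had negative terms. Rptn changed by 5.83 ± 0.29 with the cream, by 2.83 ± 0.29 with the diet and by 5.72 ± 0.29 with both, and its interaction was -2.94 ± 0.41 (limma adjusted p = 0.00136). For Sprr1b the term was -1.72 ± 0.29 (limma adjusted p = 0.00916), for Gsdma -1.39 ± 0.26, for Chil1 -1.61 ± 0.29 and for Krt16 -2.67 ± 0.59. The Krt16 call ended without any single array other than CD-IMQ 2, CD-vehicle 3, CD-vehicle 4 and HFD-vehicle 3 (highest adjusted p = 0.0806). In the hair list 9 of 35 genes had a called negative term (median over the list -1.97), among them Krt25 (-3.53 ± 0.78), whose call ended without any 1 of CD-IMQ 1, 3, 4 or 5, CD-vehicle 5, HFD-IMQ 2, 3, 4 or 5 or HFD-vehicle 1 or 2 (highest adjusted p = 0.0832). The Krt28 and Krt73 terms also lost their calls without single arrays. S100a8 had a term of -1.35 ± 0.53 that did not pass (limma adjusted p = 0.211).

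**Figure D5:**
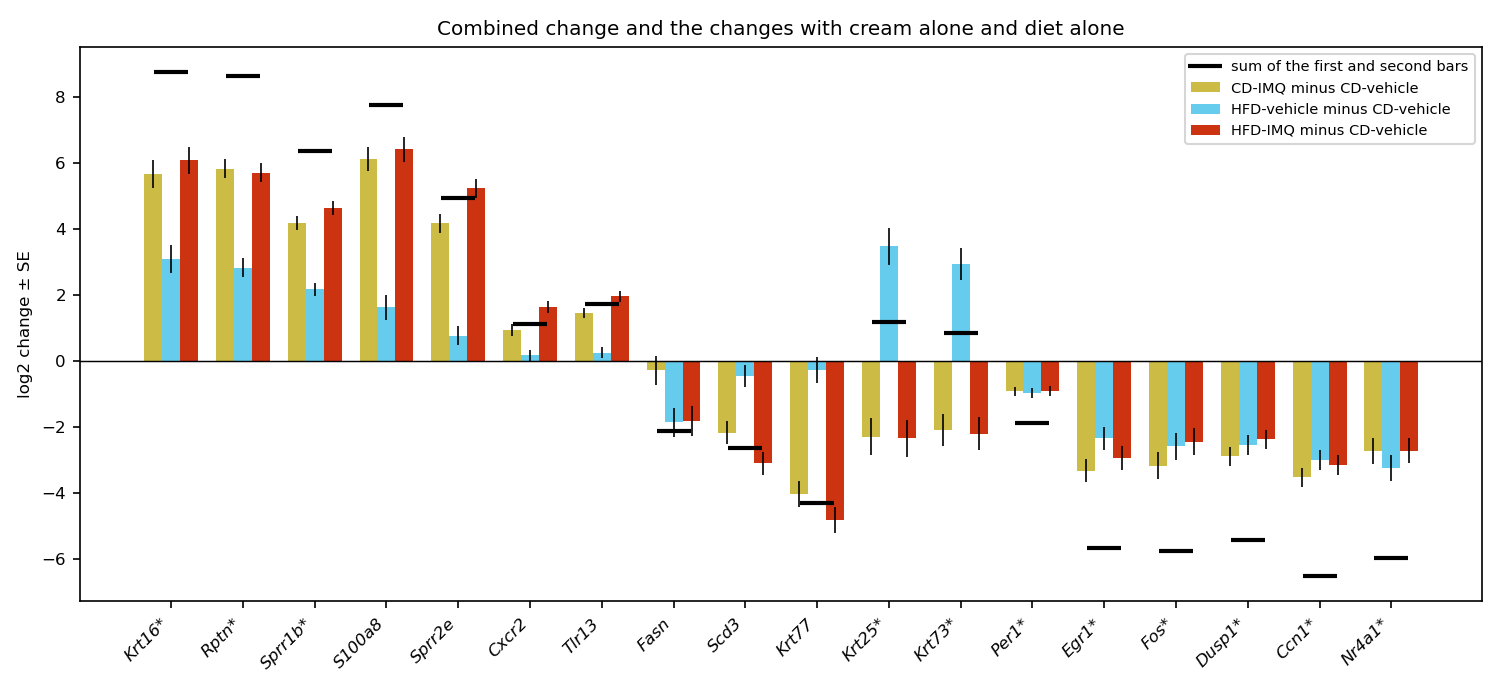
Log2 change ± SE in CD-IMQ, HFD-vehicle and HFD-IMQ, each minus CD-vehicle, for 18 genes, with a black mark at the sum of the first and second bars. An asterisk marks a gene whose combined change differs from that sum (interaction, limma adjusted p below 0.05), though for Krt16, Krt25, Krt73 and Per1 that call ended in 11 to 16 of the 20 fits that left out 1 array. Marks lie below the red bars for Fos, Dusp1, Ccn1 and Nr4a1 and above them for Krt16, Rptn and Sprr1b.

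In 26 genes (0.117%) all 5 HFD-IMQ values lay above the 15 others, and in 8 (0.0361%) below. Cd300e, an activating receptor of monocytes, had HFD-IMQ values of 6.16, 3.88, 4.13, 4.25 and 4.85, CD-IMQ values of 3.24, 3.79, 3.74, 3.47 and 3.47 and CD-vehicle values of 3.40, 3.03, 2.88, 3.24 and 2.48. Clec4e (Mincle), a C-type lectin that senses mycobacterial and fungal glycolipids, had 4.10, 3.29, 3.60, 3.29 and 3.35 in HFD-IMQ and 2.25, 2.07, 2.07, 1.77 and 2.09 in CD-vehicle. HFD-IMQ 1 was the highest array for both genes, and both changed from means near background. Cd300e rose by 1.65 ± 0.28 and Clec4e by 1.48 ± 0.19 against CD-vehicle, and their differences from CD-IMQ were 1.11 ± 0.28 and 0.99 ± 0.19 (limma adjusted p = 0.257 and 0.161). Aoah, which deacylates bacterial lipopolysaccharide, rose by 1.66 ± 0.24 and Atp11b, a phospholipid flippase, by 0.85 ± 0.13. On the low side were Krt15, the skin metallothionein Mt4 (-1.68 ± 0.37), the cytochrome P450 gene Cyp3a57 (-1.0 ± 0.19) and Rassf3 (-0.67 ± 0.13).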

How the data were processed

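Total RNA from skin of 20 mice, 5 in each of 4 groups, was hybridised to 1 Affymetrix whole-transcript array per mouse. The deposited values are log2 expression values of 41345 features, made by the authors with RMA in affy, per the submitters' processing notes, which give no version. RMA compresses low values and adjusts arrays to each other, so a shift shared by all genes can be lost. Whether all 20 arrays were normalised together is not given in the sources used here, and array medians (2.86 to 3.04) were not equal. Features with exactly 1 gene symbol were kept (23521, against 1814 with several and 16010 with none), and each of 22180 genes was represented by its feature of highest mean across all arrays.

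Group means were fitted over all 20 arrays in limma 3.58.1 (R 4.3.3), with Benjamini-Hochberg adjustment at 0.05. In simulated data with known changes, 94% of changes of 1 and 46% of changes of 0.5 were recovered for HFD-IMQ against CD-vehicle, with 22180 genes. For HFD-IMQ against CD-IMQ these shares were 88% and 40%, and for the interaction 64% and 10%. The simulation changed 200 genes in HFD-IMQ and used independent noise without outlying arrays, so recovery in these data can differ. The adjusted threshold is also easier to pass where many genes change. In these data HFD-IMQ against CD-IMQ called 0 genes, although 33 differed by at least 1. The shares of 88% and 40% therefore do not carry over to that comparison. Named genes were the largest rises and falls with separate groups, the leading called members of each list, a followed set, and the largest interactions and highest or lowest genes in HFD-IMQ. Predicted genes and receptor families were left out. Members and lists were chosen with earlier results of these data known. P-values set a difference of group means against the spread between mice within groups, estimated from all 20 arrays. The labels' replicate numbers were not used as pairs in the main fit. Correlations between the deviations of same-numbered arrays ran from -0.22 to 0.32, above 0.1 in 4 of 30 pairs. For HFD-IMQ and CD-vehicle they ran from -0.0808 to 0.32, above 0.1 in 3 of 5 pairs. Arrays with different numbers were not compared in this way, so the check cannot decide whether the numbers pair the samples. Alternatives were another fit set, scaling, feature summary, filter, array weights, prior, replicate block and each array left out. Promoter windows were matched to RefSeq by symbol.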

Additional observations from a re-analysis of the deposited data

Results flagged for a closer look

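In 22 of the 408 groups of 5 arrays checked (204 genes named here, in HFD-IMQ and CD-vehicle), 1 array lay far from the others by Dixon's criterion. Chance alone marks about 1 group in 20. The criterion sets the gap to the nearest array against the range of the 5 values, so a flagged array can lie close by. Ppard was flagged in HFD-IMQ although its values ran only from 5.74 to 5.86. In HFD-IMQ, array 4 was low for Fos (4.06), Bub1b (4.29), Timp1 (4.48), Tgm1 (6.32) and Hbegf (4.53), array 1 was high for Ppard (5.86), Tchh (6.07) and Krt71 (5.20), array 2 was low for Usp18 (4.20) and high for Mrc1 (9.28), and array 5 was high for Abca12 (8.69). In CD-vehicle, array 4 was high for Csta3 (2.31), Ccl24 (7.42) and Tlr13 (4.71), array 3 was low for Fcgr4 (2.24), Tchh (1.84), Il10rb (6.20), Elovl5 (7.90), Elovl4 (9.06) and Aloxe3 (4.31), and array 2 was low for Atp11b (5.30) and Ifngr2 (6.26).

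The change with the cream differed between HFD-fed and CD-fed mice by the interaction test for 19 named genes. It was higher in HFD-fed mice, in log2 units, by 3.36 for Ccn1, 3.31 for Fos, 3.24 for Nr4a1, 3.05 for Dusp1, 2.72 for Egr1, 2.51 for Zfp36, 2.07 for Errfi1, 1.46 for Vegfa, 1.25 for Tnfaip3 and 0.97 for Per1. The difference was negative for Krt25 (-3.53), Krt28 (-3.17), Krt73 (-3.05), Rptn (-2.94), Krt16 (-2.67), Sprr1b (-1.72), Chil1 (-1.61), Gsdma (-1.39) and Ereg (-0.90). A positive difference need not be a rise with the cream. Median Fos values were 8.06 in CD-vehicle and 4.87 in CD-IMQ, against 5.83 in both HFD-vehicle and HFD-IMQ.

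Besides Krt16 and Krt25, 5 of these calls ended when 1 array was left out. Ereg ended without CD-IMQ 1, 2, 3, 4 or 5, CD-vehicle 2 or 3, HFD-IMQ 1, 2, 3 or 4 or HFD-vehicle 1, 2 or 4 (highest adjusted p 0.154). Krt73 ended without CD-IMQ 1, 3, 4 or 5, CD-vehicle 3, 4 or 5, HFD-IMQ 2, 3, 4 or 5 or HFD-vehicle 1 or 2 (highest 0.0922) and Krt28 without CD-IMQ 4 or 5, HFD-IMQ 2 or 5 or HFD-vehicle 1 (highest 0.0734). Per1 ended without CD-IMQ 1, 3 or 4, CD-vehicle 1 or 3, HFD-IMQ 1, 2 or 5 or HFD-vehicle 1, 2 or 4 (highest 0.0828) and Vegfa without CD-IMQ 3, 4 or 5, CD-vehicle 3, HFD-IMQ 2 or 3 or HFD-vehicle 1 (highest 0.0752).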

How the results depend on the processing

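Of 182 called genes named here, 144 kept their call and direction under every alternative run. The limit of an absolute change of at least 1 left 411 calls (273 higher, 138 lower). HFD-IMQ against CD-IMQ gave 1 gene, lower, after shifting medians, with genes above the median of all features, with the mean of all features and with the trend and robust prior. It gave 30 (17 higher, 13 lower) without the 3 arrays farthest from their groups, a setting chosen after seeing the data. Positive interactions numbered 60 without those 3 arrays, 166 after shifting medians and 58 after quantile normalization, and negative ones 26 with the trend and robust prior. With 1 array left out, counts ran from 1162 to 1817 (622 to 983 higher, 520 to 834 lower) against CD-vehicle, 0 to 20 (0 to 13, 0 to 7) against CD-IMQ, 990 to 1370 (601 to 834, 361 to 536) against HFD-vehicle and 57 to 198 (40 to 138, 15 to 71) for the interaction. With the replicate block they were 1470 (803 higher, 667 lower), 0, 1209 and 124. With that block Cd22, Ifngr2, Lgals3, Postn and Vegfa lost their call against CD-vehicle, and the Krt16 and Krt73 interactions theirs. With only the 10 arrays compared, 15 named genes lost it (Blk, Bub1b, Cd22, Fasn, Hbegf, Ifngr2, Krt71, Lgals3, Me1, Postn, Sirpa, Stab1, Tchh, Timd4 and Vegfa), 9 without the 3 arrays, 7 with the trend and robust prior, 3 after shifting medians, 3 after quantile normalization and 1 with the mean of all features. Changes near 0 turned sign in Il22 (-0.105 to 0.0514 with 1 array left out), Il23a (0.00212 after quantile normalization, -0.119 to 0.0621 with 1 left out), Ly6g (0.0278 without the 3 arrays, 0.0157 with array weights, -0.0589 to 0.0447 with 1 left out), Mpo (-0.0886 to 0.0859 with 1 left out) and Cd3e (0.00205 after shifting medians, 0.0162 after quantile normalization, -0.0595 to 0.0564 with 1 left out). The cause of these differences was not tested. Signal over background limited low genes.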

Other observations

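Several lists had few called members. Of 16 genes of the IL-6 and IL-20 families and STAT3 signalling, Il19 (0.79 ± 0.20) and Stat3 (0.42 ± 0.11) rose and 0 fell. The number that rose was 1 without CD-vehicle 5, HFD-IMQ 1, HFD-IMQ 3 or HFD-IMQ 5, and 1 gene fell without CD-vehicle 2, HFD-IMQ 1, HFD-IMQ 2 or HFD-vehicle 3. Of 12 B and plasma cell genes 3 rose, Blk (0.78 ± 0.21), Cd79b (0.51 ± 0.15) and Cd22 (0.48 ± 0.15), but 0 rose without CD-vehicle 5 or HFD-IMQ 5 and 1 without CD-vehicle 2, CD-vehicle 4, HFD-IMQ 1 or HFD-IMQ 2. Of 12 heat shock genes Hspa1b (0.51 ± 0.13) and Hspa8 (0.37 ± 0.08) rose, 1 of them without CD-vehicle 1 or HFD-IMQ 5, and 1 gene fell without HFD-IMQ 4 or HFD-vehicle 3. Wnt4 (0.81 ± 0.17) rose among 13 mammary epithelial genes, and 1 gene of that list fell without CD-vehicle 1, HFD-IMQ 2, HFD-IMQ 4 or HFD-vehicle 3. Gpr143 (-0.43 ± 0.11), a melanosome receptor, fell among 12 melanocyte genes, and 0 fell without CD-vehicle 1, CD-vehicle 3, HFD-IMQ 4 or HFD-IMQ 5. Slc4a1 (0.82 ± 0.21) was the 1 red blood cell gene measured and lost its call without HFD-IMQ 1. The Blk and Cd22 calls also ended with only the 10 arrays compared, and the Cd22 call with the replicate block and the trend and robust prior. Over these alternatives adjusted p reached 0.0617 for Il19, 0.0579 for Stat3, 0.0673 for Blk, 0.0983 for Cd79b, 0.133 for Cd22, 0.0723 for Hspa1b, 0.131 for Gpr143 and 0.0601 for Slc4a1. Il19, Blk, Cd79b, Cd22 and Gpr143 had a group mean near background.

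In the list of cholesterol synthesis and uptake, 2 of 16 fell and 1 rose. Insig1, which holds back sterol synthesis, was lower (-1.15 ± 0.28, adjusted p 0.0503 without HFD-IMQ 1). Without HFD-IMQ 1, 0 genes of the list were called. The number that fell was 1 without any 1 of 13 further arrays, namely CD-IMQ 3 or 4, CD-vehicle 1, 2, 4 or 5, HFD-IMQ 2, 3, 4 or 5 and HFD-vehicle 1, 2 or 4. The number that rose was 0 without CD-IMQ 3 or 4, CD-vehicle 1, 2, 3 or 5, HFD-IMQ 2, 3 or 5 or HFD-vehicle 1, 2 or 4.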
